A study of Mus musculus with 6 samples.

Results

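C-type lectin receptors of myeloid cells were followed in CX3CR1-EGFP+ osteoclast precursors, with 10 genes chosen by symbol, namely *Clec4e*, *Clec4d*, *Clec4n*, *Clec5a*, *Clec7a*, *Clec4a1*, *Clec4a2*, *Clec4a3*, *Clec12a* and *Clec10a*. All 10 were found among the 24346 gene symbols of the RNA-Seq tables. The cells were sorted from calvarial bone marrow of CX3CR1-EGFP knock-in mice, in which the green reporter marks the monocyte lineage and some other CX3CR1+ cells, and the sort used the reporter alone. LPS (lipopolysaccharide of bacterial walls, 20 mg/kg) had been injected into the periosteum of the calvaria of all 6 mice, so both groups carry the same inflammatory stimulus. From that day 3 mice were given the JAK1-selective inhibitor ABT-317 (60 mg/kg by mouth, 2 doses per day for 5 days) and 3 mice were given vehicle on the same schedule. The age, sex and reporter zygosity of these 6 mice were not given in the sources used here. Each library came from a separate mouse.

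C-type lectin receptors are membrane proteins with a folded extracellular domain that binds sugars, lipids or proteins of microbes and of dying cells. Activating members reach the kinase Syk, either through adaptors that carry an immunoreceptor tyrosine-based activation motif (ITAM) or through a related motif in their own tail, and Syk then signals through the scaffold CARD9 to NF-κB. Inhibitory members carry an inhibitory motif (ITIM) that recruits phosphatases such as SHP-1. The ITAM adaptors FcRγ (*Fcer1g*) and DAP12 (*Tyrobp*) are shared with the receptors that costimulate osteoclast formation.

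Under JAK inhibitor the 10 genes did not move as a block. *Clec7a* was 2.21-fold higher in mean FPKM (fragments scaled by transcript length and by library size) and *Clec12a* was 1.28-fold higher, whereas *Clec5a* was 1.62-fold lower and *Clec4e* 1.64-fold lower, each with groups that did not overlap (n = 3 mice per group). *Clec4n* and *Clec4d* had lower means with groups that overlapped. No member passed an adjusted p of 0.05 in limma, a threshold that 0.133% of the 11301 tested genes passed, and the smallest adjusted p of the 10 was 0.0886, for *Clec7a*. The words higher and lower below therefore describe these libraries.

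FPKM summed to between 688372 and 775790 per library, which is not a read depth, and the depth is unknown. Log2(FPKM + 1) was tested for genes that reached 1 FPKM in any library. All 10 members passed this filter in every library, with a lowest value of 11.2. Vehicle-treated mouse 3 stood apart from the others. It held the highest value of 25.3% and the lowest value of 24.8% of the tested genes, against 13.3% to 17.6% for each other library, and it was the highest or the lowest library for 8 of the 10 members. The sorted cells had the monocyte genes *Csf1r* (355 to 422 FPKM over the 6 libraries) and *Cx3cr1* (15.5 to 36.1 FPKM), and the B and T cell genes *Cd79a* and *Cd3e* stayed below 1 FPKM. Of the lymphoid list, *Nkg7* (167 to 557 FPKM) and *Gzma* (0 to 33.1 FPKM) were present, whereas *Ncr1* (0 to 1.71 FPKM) and *Klrb1c* (0.199 to 1.13 FPKM) stayed low. *Gzma* was at 0 in JAK inhibitor-treated mouse 3, where *Nkg7* had 489 FPKM. Which cells held the *Nkg7* transcripts was not tested. *Elane*, a gene of early granulocytes and their progenitors, had 1003 to 4023 FPKM.

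Of the 10 members, 4 had a lower and 3 a higher level with JAK inhibitor at an unadjusted p under 0.05 in limma, against 9.40% and 6.57% of all tested genes. Groups did not overlap for 2 members on the lower side and 2 on the higher side, against 12.1% and 9.92% of all tested genes. The estimates went in both directions, with 5 below 0 and 5 above, and their median log2 difference was -0.18, beside -0.0035 for all tested genes. The members were chosen with earlier results of these data known, so their counts beside the shares of all genes are a description and no test. Several members are close relatives and neighbours on 1 chromosome, and members are not replicates of the treatment.

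**Figure D1:**
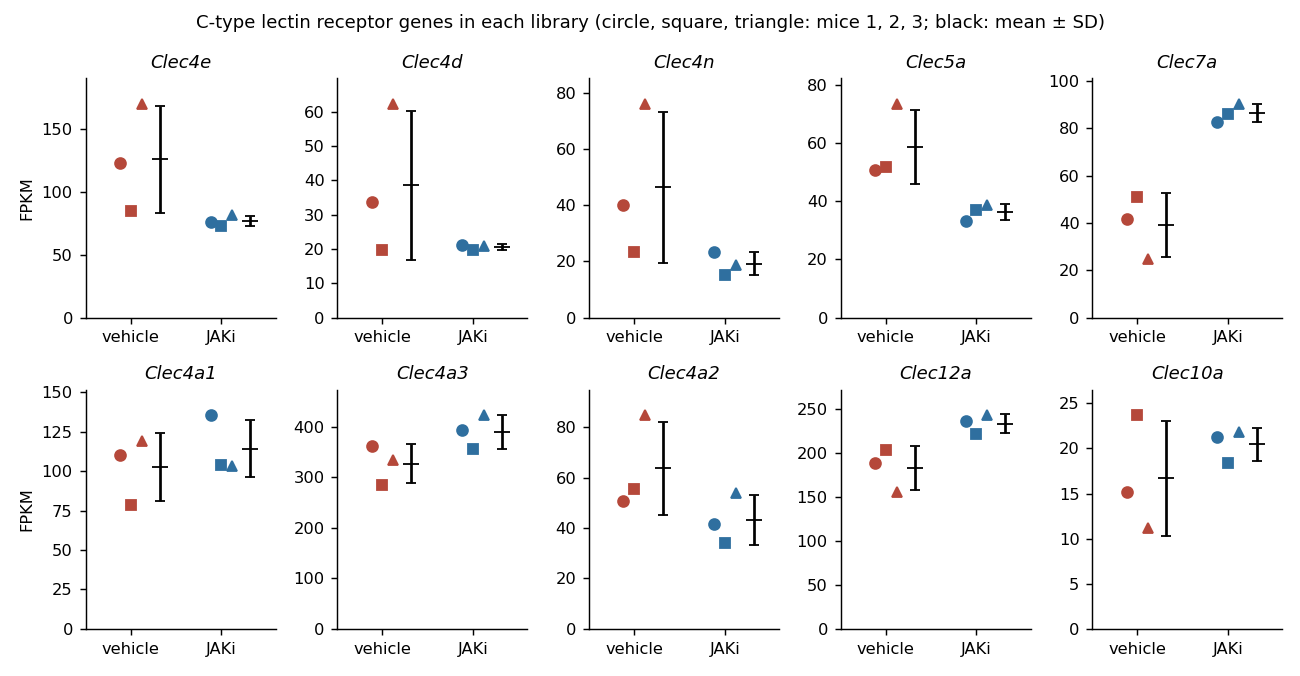
FPKM of the 10 genes (vertical axes, each from 0) in 3 vehicle-treated (red) and 3 JAK inhibitor-treated (blue) mice, with circles, squares and triangles for mice 1, 2 and 3 and black bars for the mean ± SD. For *Clec7a* the JAK inhibitor-treated mice lie between 82.7 and 90.2, all above the vehicle-treated mice, and for *Clec5a* they lie between 33.2 and 38.6, all below.

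The promoters of the members whose groups did not overlap, as was true of 22.0% of all tested genes, are shown first as a description. RefSeq windows on GRCm38.p6 were matched for 8 of the 10 members. The stretches below end just before the annotated transcript start, and bases inside any annotated exon were left out, which removed the whole *Clec12a* window. They run 5′ to 3′ on the strand of the gene, with capitals for matches to the motifs described next. The positions are chr6:129472786-129473035 for *Clec7a*, chr6:123289872-123290121 for *Clec4e* and chr6:40585822-40586055 for *Clec5a*, all on the minus strand.
Clec7a: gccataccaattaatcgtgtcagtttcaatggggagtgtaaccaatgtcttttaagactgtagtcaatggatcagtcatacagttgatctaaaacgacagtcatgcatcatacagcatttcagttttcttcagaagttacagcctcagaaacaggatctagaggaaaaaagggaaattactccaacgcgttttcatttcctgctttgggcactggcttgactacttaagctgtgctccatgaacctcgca
Clec4e: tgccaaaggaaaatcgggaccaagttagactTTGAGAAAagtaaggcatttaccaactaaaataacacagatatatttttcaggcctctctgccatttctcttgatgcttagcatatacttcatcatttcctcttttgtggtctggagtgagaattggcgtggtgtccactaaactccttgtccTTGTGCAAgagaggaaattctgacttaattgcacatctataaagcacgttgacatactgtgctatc
Clec5a: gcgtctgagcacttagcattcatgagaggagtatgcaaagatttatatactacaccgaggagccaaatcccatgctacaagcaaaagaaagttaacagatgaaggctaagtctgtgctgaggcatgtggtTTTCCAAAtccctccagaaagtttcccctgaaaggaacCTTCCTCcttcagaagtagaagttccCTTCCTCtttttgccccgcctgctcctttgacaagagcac

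Motif letters were searched on both strands of the 250 bases before each start. The C/EBP letters TTNNGNAA was found in the windows of *Clec4e*, *Clec5a*, *Clec4d*, *Clec4a2* and *Clec12a*, and 36.8% of all 32851 promoter windows hold it. The PU.1 letters GAGGAAG were found for *Clec5a*, *Clec4d*, *Clec4a1* and *Clec12a*, against 10.6% of all windows. A STAT palindrome TTCNNNGAA was found only for *Clec4a2* among the members with a window, against 7.02% of all windows. The AP-1 letters TGANTCA were found only for *Clec12a* (6.75% of all windows). Unlike the printed stretches, this search kept exon bases. The *Clec4a2* window (chr6:123122440-123122689) lies inside the annotated gene and holds exon bases, and the *Clec12a* window lies wholly in exons. Neither match can therefore be read as lying upstream of its gene. Matches of the C/EBP letters overlapped each other in the *Clec4a2* window. The *Clec7a* window printed above held none of these 4 sets of letters. A match is a description of the letters and no evidence of binding.

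*Clec7a* (chr6:129461591-129472779, GENCODE M21 on GRCm38) encodes Dectin-1, the receptor for fungal beta-glucan, which recruits Syk through its own cytoplasmic tail. GENCODE lists the gene as a polymorphic pseudogene with protein-coding transcripts among its models, and FPKM per gene does not separate its splice forms. Its FPKM was 41.5, 51.0 and 24.7 in vehicle-treated mice 1 to 3, and 82.7, 86.0 and 90.2 in JAK inhibitor-treated mice 1 to 3. Every JAK inhibitor-treated mouse lay above every vehicle-treated mouse, and the treated mice were close to each other. Mean FPKM was 86.3 ± 3.78 (SD, n = 3) in treated and 39.1 ± 13.4 (SD, n = 3) in vehicle-treated mice. The difference in log2(FPKM + 1) was 1.18 (standard error 0.22, 95% confidence interval 0.68 to 1.68, adjusted p = 0.0886 in limma), and its p ranked 60 among the 11301 tested genes. By an exact permutation test, 2-sided, p was 0.1, which no result of 3 mice against 3 can undercut. Vehicle-treated mouse 3 had the lowest value. Without it the difference was 0.89 and the adjusted p was 0.0424 in limma, so the smaller estimate came with a smaller spread.

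Of the receptors that pair with FcRγ, *Clec4e* (chr6:123281789-123289870) encodes Mincle, which binds mycobacterial cord factor and is known to be induced by LPS in macrophages. Its FPKM was 122.9, 85.3 and 170.2 in vehicle-treated mice 1 to 3, and 76.4, 73.1 and 81.5 in JAK inhibitor-treated mice 1 to 3. All treated mice were below all vehicle-treated mice, by a small margin against vehicle-treated mouse 2. The means were 126.1 ± 42.5 (SD, n = 3) and 77.0 ± 4.23 (SD, n = 3), a log2 difference of -0.65 (standard error 0.21, 95% confidence interval -1.12 to -0.18, adjusted p = 0.191 in limma). The exact permutation test gave p = 0.1. Without vehicle-treated mouse 3 the log2 difference was -0.41.

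*Clec4d* (chr6:123262111-123275265) encodes MCL, which forms complexes with Mincle on the cell surface. Its FPKM was 33.6, 19.8 and 62.3 in vehicle-treated mice 1 to 3, and 21.2, 19.6 and 20.9 in JAK inhibitor-treated mice 1 to 3. Vehicle-treated mouse 2 lay within the treated range, and mouse 3 was far above all others. The log2 difference of -0.73 (standard error 0.33, 95% confidence interval -1.46 to 0.011, adjusted p = 0.321 in limma; exact permutation p = 0.3) was -0.31 without vehicle-treated mouse 3 and -1.12 without vehicle-treated mouse 2, so this value rested on which vehicle-treated mice were included.

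*Clec4n* (chr6:123229843-123247021) encodes Dectin-2, a receptor for fungal mannans. Its FPKM was 39.9, 23.4 and 75.9 in vehicle-treated mice 1 to 3, and 23.5, 15.3 and 18.6 in JAK inhibitor-treated mice 1 to 3. The groups touched, since JAK inhibitor-treated mouse 1 was level with vehicle-treated mouse 2. The estimate was the largest below 0 among the members, with a log2 difference of -1.10 (standard error 0.35, 95% confidence interval -1.90 to -0.30, adjusted p = 0.191 in limma), and means of 46.4 ± 26.9 and 19.1 ± 4.11 (SD, n = 3 each). The exact permutation test gave p = 0.2. Without vehicle-treated mouse 3 the log2 difference was -0.67, and without vehicle-treated mouse 2 it was -1.50. The genes of Mincle, MCL and Dectin-2 had the same order of the vehicle-treated mice, with mouse 3 highest and mouse 2 lowest.

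*Clec5a* (chr6:40574894-40585821) encodes MDL-1, which signals through DAP12. Its FPKM was 50.8, 51.9 and 73.5 in vehicle-treated mice 1 to 3, and 33.2, 36.8 and 38.6 in JAK inhibitor-treated mice 1 to 3. The groups did not overlap, with a clear gap between the lowest vehicle-treated and the highest treated mouse. The means were 58.7 ± 12.8 (SD, n = 3) and 36.2 ± 2.74 (SD, n = 3). The log2 difference was -0.67 (standard error 0.15, 95% confidence interval -1.001 to -0.33, adjusted p = 0.109 in limma; exact permutation p = 0.1), and -0.50 without vehicle-treated mouse 3. Its unadjusted p stayed under 0.05 in limma under all 14 alternatives tried, as did those of *Clec7a* and *Clec12a*.

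The estimates of the ITIM receptors had opposite signs. *Clec12a* (chr6:129342691-129365303) encodes MICL, an inhibitory receptor that binds uric acid crystals. Its FPKM was 188.7, 203.4 and 155.2 in vehicle-treated mice 1 to 3, and 235.4, 220.9 and 242.3 in JAK inhibitor-treated mice 1 to 3. All treated mice lay above all vehicle-treated mice, and the log2 difference was 0.36 (standard error 0.11, 95% confidence interval 0.11 to 0.61, adjusted p = 0.176 in limma; exact permutation p = 0.1). *Clec4a2* (chr6:123106428-123143999) encodes DCIR, the dendritic cell immunoreceptor. Its FPKM was 50.7, 55.7 and 84.7 in vehicle-treated mice 1 to 3, and 41.7, 34.2 and 53.9 in JAK inhibitor-treated mice 1 to 3. JAK inhibitor-treated mouse 3 lay above vehicle-treated mouse 1, so the groups overlapped. The log2 difference was -0.53 (standard error 0.21, 95% confidence interval -1.02 to -0.05, adjusted p = 0.267 in limma; exact permutation p = 0.2), and -0.31 without vehicle-treated mouse 3. A processed pseudogene, *Gm44132*, lies within *Clec4a2* on the same strand. No other member overlaps an annotated gene.

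*Clec4a3* (chr6:122952515-122969875) and *Clec4a1* (chr6:122921848-122934619) encode close relatives of DCIR. *Clec4a3* had the highest level of the 10 genes, with an FPKM of 362.5, 285.1 and 333.8 in vehicle-treated mice 1 to 3, and 393.4, 355.7 and 422.5 in JAK inhibitor-treated mice 1 to 3. The ranges overlapped at JAK inhibitor-treated mouse 2. The log2 difference was 0.26 (standard error 0.11, 95% confidence interval 0.0076 to 0.51, adjusted p = 0.299 in limma; exact permutation p = 0.2). It was 0.16 without vehicle-treated mouse 2, and its unadjusted p was above 0.05 in 6 of 14 alternative settings. *Clec4a1* had an FPKM of 110.5, 78.4 and 119.1 in vehicle-treated mice 1 to 3, and 135.4, 104.1 and 103.6 in JAK inhibitor-treated mice 1 to 3. Its groups were mixed, with a log2 difference of 0.17 (standard error 0.17, 95% confidence interval -0.22 to 0.55, adjusted p = 0.679 in limma; exact permutation p = 0.6). The sequences of *Clec4a1*, *Clec4a2*, *Clec4a3* and their neighbours *Clec4a4* and *Clec4b1* are similar, and how the authors assigned reads that fit more than 1 of them is not given in the sources used here, so the split of signal among them is uncertain.

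*Clec10a* (chr11:70156197-70170834) encodes MGL1, a receptor for galactose and N-acetylgalactosamine found on dendritic cells and macrophages. Its FPKM was 15.2, 23.7 and 11.2 in vehicle-treated mice 1 to 3, and 21.3, 18.3 and 21.8 in JAK inhibitor-treated mice 1 to 3. The highest and the lowest library were both vehicle-treated. The log2 difference was 0.34 (standard error 0.23, 95% confidence interval -0.18 to 0.85, adjusted p = 0.516 in limma; exact permutation p = 0.4), and it was 0.10 without vehicle-treated mouse 3 and 0.61 without vehicle-treated mouse 2.

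**Figure D2:**
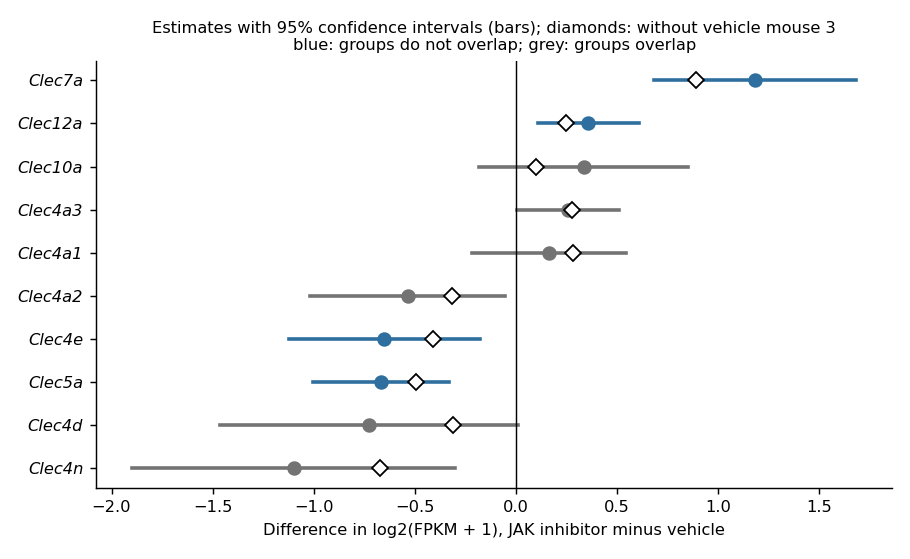
Difference in log2(FPKM + 1), JAK inhibitor minus vehicle, for each member (dots, with limma 95% confidence intervals as bars, 3 mice per group), and the same without vehicle-treated mouse 3 (diamonds). Blue marks *Clec7a*, *Clec12a*, *Clec4e* and *Clec5a*, whose groups did not overlap; without vehicle-treated mouse 3, 8 of the 10 estimates lie nearer 0 and none changes sign.

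**Figure D3:**
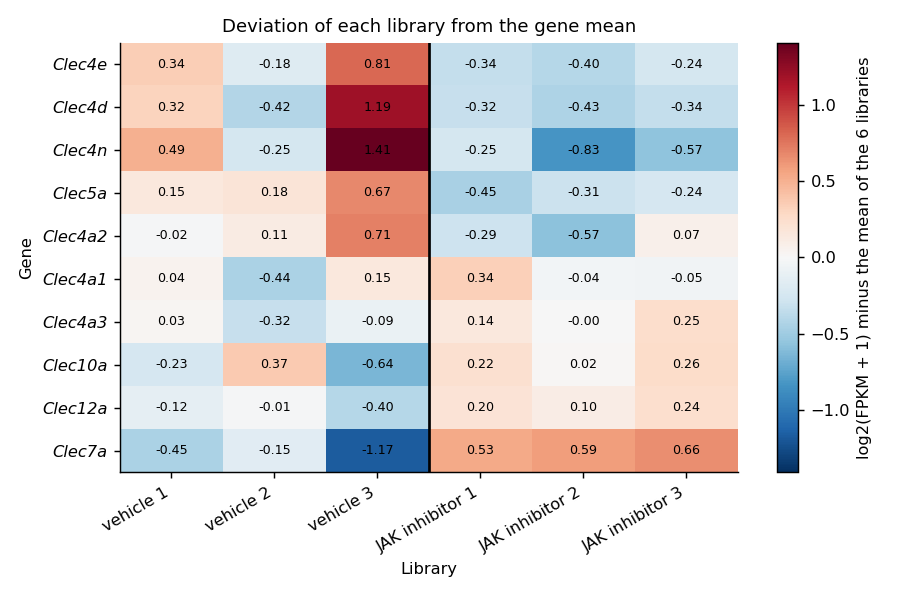
Deviation of each library (columns) from the mean of the 6 libraries in log2(FPKM + 1) for each member (rows), with red above and blue below the mean. Vehicle-treated mouse 3 has the strongest colours, from 1.41 for *Clec4n* to -1.17 for *Clec7a*, and the 3 JAK inhibitor-treated mice resemble each other for most members.

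FPKM is scaled by transcript length, so levels can be set side by side. By mean FPKM in vehicle-treated mice the order was *Clec4a3* (327.1), *Clec12a* (182.5), *Clec4e* (126.1), *Clec4a1* (102.7), *Clec4a2* (63.7), *Clec5a* (58.7), *Clec4n* (46.4), *Clec7a* (39.1), *Clec4d* (38.6) and *Clec10a* (16.7). Only *Clec4a3* was separated from the next gene by its range over these mice, and all other neighbours overlapped. In JAK inhibitor-treated mice *Clec4a3* (390.5), *Clec12a* (232.8) and *Clec4a1* (114.4) were followed by *Clec7a* (86.3), which moved from rank 8 to rank 4, and then by *Clec4e* (77.0). *Clec4a2* (43.3), *Clec5a* (36.2), *Clec4d* (20.6), *Clec10a* (20.5) and *Clec4n* (19.1) followed. Here the ranges of neighbours overlapped between *Clec4a2* and *Clec5a* and among the last 3 genes.

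As a measure free of the scaling between libraries, the ratio of *Clec7a* to *Clec4e* FPKM was 0.338, 0.598 and 0.145 in vehicle-treated mice 1 to 3, and 1.08, 1.18 and 1.11 in JAK inhibitor-treated mice 1 to 3. Dectin-1 transcripts were thus fewer than Mincle transcripts per length in each vehicle-treated mouse and more numerous in each treated mouse. The ratio of *Clec12a* to *Clec5a* was 2.11 to 3.92 with vehicle and 5.99 to 7.09 with JAK inhibitor. These ratios were chosen after the values were seen and carry no test.

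All members but *Clec10a* lie on chromosome 6. A block of 368.0 kb from *Clec4a1* to *Clec4e* holds 9 listed C-type lectin genes, 6 of them members. At its start, *Clec4a1*, *Clec4a3*, *Clec4a4* and *Clec4b1* had log2 differences of 0.17, 0.26, 0.036 and 0.63. At its end, the adjacent *Clec4n*, *Clec4d* and *Clec4e* had -1.10, -0.73 and -0.65, with *Clec4b2* (0.15) between them and *Clec4a2* (-0.53). A separate block of 130.1 kb runs from *Clec12a* to *Clec7a*, both of which were higher, and the 4 listed lectin genes between them, *Clec12b*, *Clec1b*, *Clec9a* and *Clec1a*, stayed below 1 FPKM in every library. The order along the chromosome is a description.

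**Figure D4:**
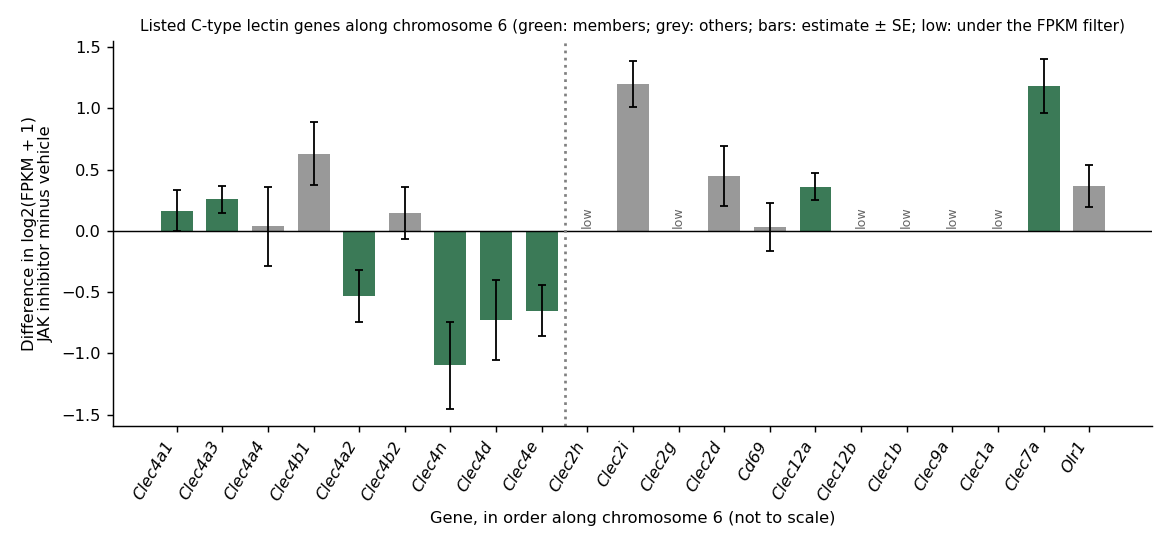
Difference in log2(FPKM + 1), JAK inhibitor minus vehicle (vertical axis, bars with standard errors, 3 mice per group), for listed C-type lectin genes in their order along chromosome 6, with members in green, other genes in grey and genes under the FPKM filter marked low. The dotted line parts the *Clec4a1* to *Clec4e* block from later genes; the 3 genes before it lie below 0, whereas *Clec12a* and *Clec7a* lie above.

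The signalling partners of these receptors were then examined, with 21 genes, all tested, of which *Src* reached 1 FPKM in vehicle-treated mice alone. Of the other 20, 0 were lower and 1 was higher at an unadjusted p under 0.05 in limma, against 9.40% and 6.57% of all tested genes. Among these 20, 0 passed an adjusted p of 0.05, and the median log2 difference was -0.03. The shared adaptors had the highest mean FPKM of the 21 genes, and the means of the groups were close. *Fcer1g* had 3334 ± 388 in vehicle-treated and 3320 ± 331 in treated mice (FPKM, SD, n = 3 each), and its log2 difference was -0.0046 (95% confidence interval -0.27 to 0.26). *Tyrobp* had a log2 difference of 0.12 (95% confidence interval -0.09 to 0.34). *Syk*, the kinase that all activating members reach, had 33.7 ± 2.46 and 38.1 ± 1.59 FPKM, with an adjusted p of 0.441 in limma. Treated mice lay above vehicle-treated mice by a small margin (36.7 against 36.2 FPKM at the closest). *Card9* had 45.9 ± 5.69 and 37.6 ± 4.43 FPKM, with an adjusted p of 0.322 in limma. Treated mice lay below, but JAK inhibitor-treated mouse 2 (42.2 FPKM) was nearly level with vehicle-treated mouse 2 (42.3 FPKM). Groups did not overlap for 22.0% of all tested genes. *Ptpn6*, which encodes SHP-1, had a log2 difference of -0.15 (95% confidence interval -0.35 to 0.05). The gene with the smallest p was *Vav3*, a guanine nucleotide exchange factor, with 12.8 ± 2.33 and 18.6 ± 1.52 FPKM, a log2 difference of 0.52 (adjusted p = 0.161 in limma).

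Other C-type lectin genes were taken as a wider family, with 38 genes, of which 22 were tested, and the other 16 did not reach 1 FPKM in any library. Of the tested genes, 2 were lower and 5 higher at an unadjusted p under 0.05 in limma, against 9.40% and 6.57% of all tested genes. Among these 22, 0 passed an adjusted p of 0.05, and the median log2 difference was 0.15. *Clec2d* and *Ly75* reached 1 FPKM in treated mice alone and *Cd207* in vehicle-treated mice alone, and over the other 19 the counts were again 2 and 5, with a median of 0.15. *Clec2i*, whose product is a ligand of NK cell receptors, had 23.6 ± 3.07 FPKM in treated and 9.87 ± 2.66 in vehicle-treated mice, a log2 difference of 1.20 (adjusted p = 0.0665 in limma). *Thbd*, thrombomodulin, had 6.69 ± 3.46 and 14.7 ± 1.87 FPKM, a log2 difference of 1.14 (adjusted p = 0.156 in limma). *Cd209a* (log2 difference 1.16) and *Clec4b1* (0.63) were higher with overlapping groups. *Mgl2*, the neighbour and closest relative of *Clec10a*, was named after its values were seen, and had 15.0, 19.3 and 3.56 FPKM in vehicle-treated mice 1 to 3 and 22.1 to 25.5 in treated mice. On the lower side, *Cd302* had 222.1 ± 41.3 and 140.2 ± 20.8 FPKM, a log2 difference of -0.65 (adjusted p = 0.118 in limma), and *Klra17* had a log2 difference of -0.77 (adjusted p = 0.152 in limma). *Klra2* had 21.3 ± 5.75 and 19.9 ± 5.09 FPKM with overlapping groups.

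Cytokine and effector genes that Syk and CARD9 signalling is known to induce, and that LPS and other stimuli also induce, made a list of 18 genes, of which 10 were tested. *Il12b*, *Il23a*, *Csf2* and *Egr3* were listed at 0 in every library. Among the 10 tested genes, *Cxcl2*, *Nos2* and *Egr2* reached 1 FPKM in vehicle-treated mice alone, so the filter fixed their direction and they were left out of the counts. Of the 7 genes that reached it in both groups, 4 were lower and 0 higher at an unadjusted p under 0.05 in limma, against 9.40% and 6.57% of all tested genes. This list was also chosen with earlier results of these data known, so the count is a description. From these 7 genes, 0 passed an adjusted p of 0.05, and the median log2 difference was -0.45, or -0.31 without vehicle-treated mouse 3. *Ccl3* had 30.7 ± 3.11 FPKM with vehicle and 18.3 ± 3.96 with JAK inhibitor (log2 difference -0.73, adjusted p = 0.109 in limma). *Ccl4* had 9.61 ± 2.34 and 4.51 ± 1.32 FPKM (log2 difference -0.95). *Il1rn*, the interleukin-1 receptor antagonist, had 5.35 ± 1.37 and 2.51 ± 0.337 FPKM (log2 difference -0.84). *Il1b* had 69.4 ± 14.8 and 50.1 ± 9.09 FPKM with overlapping groups, and *Tnf* had 9.42 ± 2.93 and 7.87 ± 1.16.

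Markers of the cells that the sort could hold moved beside these results, and in bulk RNA fewer cells of a type and less RNA per cell cannot be told apart. Of 11 tested macrophage genes, 7 were lower and 0 higher at an unadjusted p under 0.05 in limma. Over all tested genes the shares were 9.40% and 6.57%, which also stand beside the counts of the lists below. All listed macrophage genes summed to 2315 to 3087 FPKM in vehicle-treated and 1275 to 1538 in treated mice. Most of that sum was *Apoe* (1479 to 2332 and 753 to 970 FPKM). *Adgre1*, the gene of F4/80, had overlapping groups (63.2 to 91.9 and 65.1 to 77.9 FPKM), as had *Cd68* (log2 difference -0.084). Of 12 monocyte genes, 3 were lower (*Fn1*, *Itgam* and *Cd14*) and 3 higher (*Nr4a1*, *Ace* and *Spn*). These 12 summed to 4541 to 6353 and 5878 to 6296, most of it *Ly6c2*. Of 14 neutrophil genes, 4 were lower (*Mmp8*, *Mmp9*, *Cxcr2* and *Il1r2*) and 4 higher (*Elane*, *Mpo*, *Prtn3* and *Camp*). The sums of 18704 to 25106 and 18955 to 26253 therefore hide shifts in both directions. *Ly6g* was not among the symbols of the tables. Of 11 tested dendritic cell genes, 0 were lower and 2 higher, *Irf8* and, with overlapping groups, *Cd209a*. All listed genes summed to 246.3 to 348.8 and 376.2 to 403.2, with *Irf8* the largest part (112 to 205 and 236 to 264 FPKM). Of the tested estimates 5 were below 0 and 6 above, with a median of 0.073, or -0.18 without vehicle-treated mouse 3. *Flt3* had 21.3 to 30.4 and 20.3 to 23.8 FPKM. Of 5 tested lymphoid genes, *Klrb1c* reached 1 FPKM in vehicle-treated mice alone, and of the other 4, 1 was lower and 1 higher (all listed genes summed 204.1 to 373.0 and 490.4 to 572.6, most of it *Nkg7*), and *Ms4a1* was at 0. Of 6 tested erythroid genes, 3 reached 1 FPKM in treated mice alone and 1 in vehicle-treated mice alone, and of the other 2, 0 were lower and 1 higher (all listed genes summed 11.1 to 12.9 and 13.4 to 61.1). Of 8 tested osteoclast genes, *Dcstamp* and *Ocstamp* reached 1 FPKM in vehicle-treated mice alone, and of the other 6, 4 were lower and 1 higher (all listed genes summed 222.1 to 713.0 and 149.2 to 153.6), and *Calcr* was at 0. Vehicle-treated mouse 3 set the lowest vehicle sums of the monocyte, dendritic cell and lymphoid lists. It also set the highest vehicle sums of the macrophage, neutrophil and osteoclast lists. It had 15.5 FPKM of *Cx3cr1*, against 30.1 and 31.5 in vehicle-treated mice 1 and 2. Its *Ctsk* was 167.5 FPKM, against 55.4 and 37.5 in those mice. The vehicle ranges above thus rest in part on this library. The part of the marker shifts in the levels of the C-type lectin genes was not tested.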

How the data were processed

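RNA-Seq libraries of 6 mice were single-end reads of 75 bases. As library kit, TruSeq Stranded mRNA is given in the methods, but SMART-Seq HT with Nextera in the labels. The submitters' processing notes name TopHat2 2.0.13, Bowtie2 2.2.3, SAMtools 0.1.19, Cufflinks 2.2.1 and the build mm10; the annotation is not given in the sources used here. The authors deposited FPKM values, 1 table per library. Replicates are separate mice.

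From these, log2(FPKM + 1) was compared in R 4.3.3 with limma 3.58.1 (linear model, empirical Bayes with trend, Benjamini-Hochberg adjustment over 11301 genes reaching 1 FPKM in any library). Exact permutation tests were 2-sided (SciPy 1.17.1). On simulated data for this comparison with 200 changed genes among 11052 tested, 95 of 100 genes changed by 2 and 78 of 100 changed by 1 on the log2 scale were recovered, with 10 false calls. The simulated noise was independent between genes, had the same spread in both groups and held no outlying library. Only genes above a set mean level were changed, so these rates need not hold for the real libraries. Alternatives were a pseudocount of 0.1, no filter, a filter in 3 libraries, quantile and median ratio scaling, no trend, library weights, a replicate block and leaving out each library. Members and lists were chosen with earlier results of these data known. All members were named, with Fcer1g, Tyrobp, Syk, Card9, Ptpn6, other signalling genes with an unadjusted p under 0.05, and from both other lists up to 6 such genes by p and the 3 of highest mean FPKM; 1 gene named by this rule is not reported here. Positions are from GENCODE M21 on GRCm38 and promoters from RefSeq on GRCm38.p6.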

Additional observations from a re-analysis of the deposited data

How the results depend on the processing

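The number of genes with an adjusted p under 0.05 in limma, 15 as reported, was 2 without a filter or without the trend, 34 with the filter in 3 libraries, 63 with library weights, 67 with the replicate block and 1 to 25 with a library left out, so this threshold depended on the model. The count of all genes at an unadjusted p under 0.05 stayed within 1.5 times under the 14 alternatives. With a library left out, the members at an unadjusted p under 0.05 in limma numbered 4 (without JAK inhibitor-treated mouse 2) to 8 (without vehicle-treated mouse 2), against 7 as reported. Of all 11301 tested genes, 1351 and 1854 were under it in these 2 settings, against 1804 as reported. Members without overlap numbered 4 to 7 (without vehicle-treated mouse 2), against 4. Groups of 2 and 3 separate more easily: 30.7% to 34.8% of all tested genes did not overlap with a library left out, against 22.0% in all 6 libraries. *Clec4a1* changed sign without vehicle-treated mouse 2 (-0.016, with a range up to 0.28 over the libraries left out). The other 9 members kept their direction under all 14 alternatives. *Clec7a*, between 0.89 and 1.40, passed an adjusted p of 0.05 under 2 of them, library weights (adjusted p = 0.0324) and without vehicle-treated mouse 3 (0.0424), and its adjusted p ranged up to 0.344; no other member passed it. The cause was not tested. No pairing of mice is named in the sources used here. Correlations of deviations across genes were -0.00016 to 0.054 for same-numbered mice and -0.038 to 0.019 for mice of different numbers. With 3 mice per group such values cannot decide whether the numbers pair mice. With the replicate block no member passed an adjusted p of 0.05 in limma (*Clec7a*, 0.0708). Read depth is unknown, so no counting error can be given.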

Other observations

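Genes whose pattern over the 6 libraries was most like that of a member were looked up among 7741 genes with a mean FPKM of at least 5, with Pearson's r of log2(FPKM + 1) as the measure of likeness. For *Clec7a*, the member with the smallest p, these were *Xpc* (r = 0.995), *Rgs10* (0.995) and *Klrb1f* (0.994). *Klrb1f*, itself a C-type lectin-like gene, encodes NKR-P1F, known as a receptor for the product of *Clec2i*. It averaged 18.9 FPKM in treated and 7.83 in vehicle-treated mice, a log2 difference of 1.21, close to the 1.18 of *Clec7a*. For *Clec4a3*, the most abundant member, they were *Apoc2* (r = 0.998), *Vapa* (0.989) and *Opa3* (0.988). With 6 libraries and this many genes searched, values this high are a description, and the libraries share the treatment difference and the distance of vehicle-treated mouse 3.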
